A study of Mus musculus with 8 samples.

Results

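The genes described here act where mitochondria meet the endoplasmic reticulum or move along the cytoskeleton. They are 10 genes of 55401 in the deposited table, taken by gene name: the transport genes Rhot1, Rhot2, Trak1 and Trak2, the contact genes Vapb, Rmdn3 and Pacs2, and the calcium transfer genes Vdac1, Itpr1 and Hspa9. All 10 were present once and all 10 were among the 20152 genes that passed the filter on low counts. RNA was sequenced from cortical bone, the dense shell of bone, of C57BL/6J mice, in 4 libraries of genotype Ripk4fl/fl (control) and 4 of genotype UbcCre/ERT2 Ripk4fl/fl (KO). Both groups therefore carry floxed Ripk4, although the titles of the control samples call them WT. The Cre of the KO group is driven by the broadly active ubiquitin C promoter and is fused to an estrogen receptor domain that needs a drug, so a deletion would not be limited to bone cells. The labels give 4 weeks without saying of what, and no drug is named in the sources used here. The title of the series links the kinase RIPK4 in osteolineage cells to the mitochondrial fusion protein MFN2, which is also a tether between mitochondria and the endoplasmic reticulum.

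Mitochondria travel along microtubules on motors that are held to the outer membrane by Miro GTPases (Rhot1, Rhot2) and the adaptors of the Trak family. At contact sites, the reticulum protein VAPB binds the outer membrane protein encoded by Rmdn3, also called PTPIP51. Calcium passes from the reticulum through inositol trisphosphate receptors (Itpr1) into the outer membrane channel VDAC1, to which the chaperone GRP75 (Hspa9) links them, and then through the uniporter of the inner membrane. Markers of bone cells and of marrow cells were both present in these libraries, so a bulk measurement adds up many cell types. Fewer cells of a type and less RNA per cell cannot be told apart.

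The libraries held 61092688 to 66774693 estimated counts each, and transcripts of the mitochondrial genome took 9.21%, 16.1% and 11.7% of the counts in control 2, control 3 and control 4 and 5.56% to 6.17% in the other 5 libraries. Ripk4, the targeted gene, had 10, 4, 0 and 4 counts in the control libraries and 0, 12, 0 and 0 in the KO libraries, each in the order 1 to 4, too few to check the genotype labels. Cortical bone markers were present: Dmp1, Sost, Mepe and Phex, genes of osteocytes, averaged 180, 275, 372 and 10.9 FPKM in control. Fgf23 and Pdpn, also on the osteocyte list, averaged 2.63 and 5.04. Transcripts of marrow and blood cells were higher. Osteocyte markers summed to 415 to 1040 FPKM in control, neutrophil markers to 29100 to 41800 and erythroid markers to 8910 to 25200. FPKM is the number of fragments scaled to gene length and library size. The labels do not say whether the 4 samples of a group came from separate animals, so p-values measure the spread between these samples.

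Of the 10 genes, Vdac1 had the highest level in control, followed by Hspa9 and Trak2, and Trak1 the lowest. Control means ran down from 69.3 FPKM for Vdac1 through 40.1 for Hspa9, 17.2 for Trak2, 10.6 for Vapb, 9.85 for Rhot2, 7.65 for Rmdn3, 5.88 for Pacs2, 3.76 for Rhot1 and 2.57 for Itpr1 to 2.31 for Trak1. The first 3 steps of this order were clear, since the ranges over the 4 control libraries of Vdac1, Hspa9, Trak2 and Vapb did not overlap between neighbours. From Vapb down to Trak1 every gene overlapped its neighbour. In KO the order differed in 3 places. Rhot2 stood above Vapb, Pacs2 above Rmdn3 and Trak1 above Itpr1, and in each of these pairs the ranges overlapped. Among all tested genes the mean level over the 8 libraries placed Vdac1 at percentile 96.6, Hspa9 at 94.4, Trak2 at 88.8 and Itpr1, the lowest, at 45.8.

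**Figure D1:**
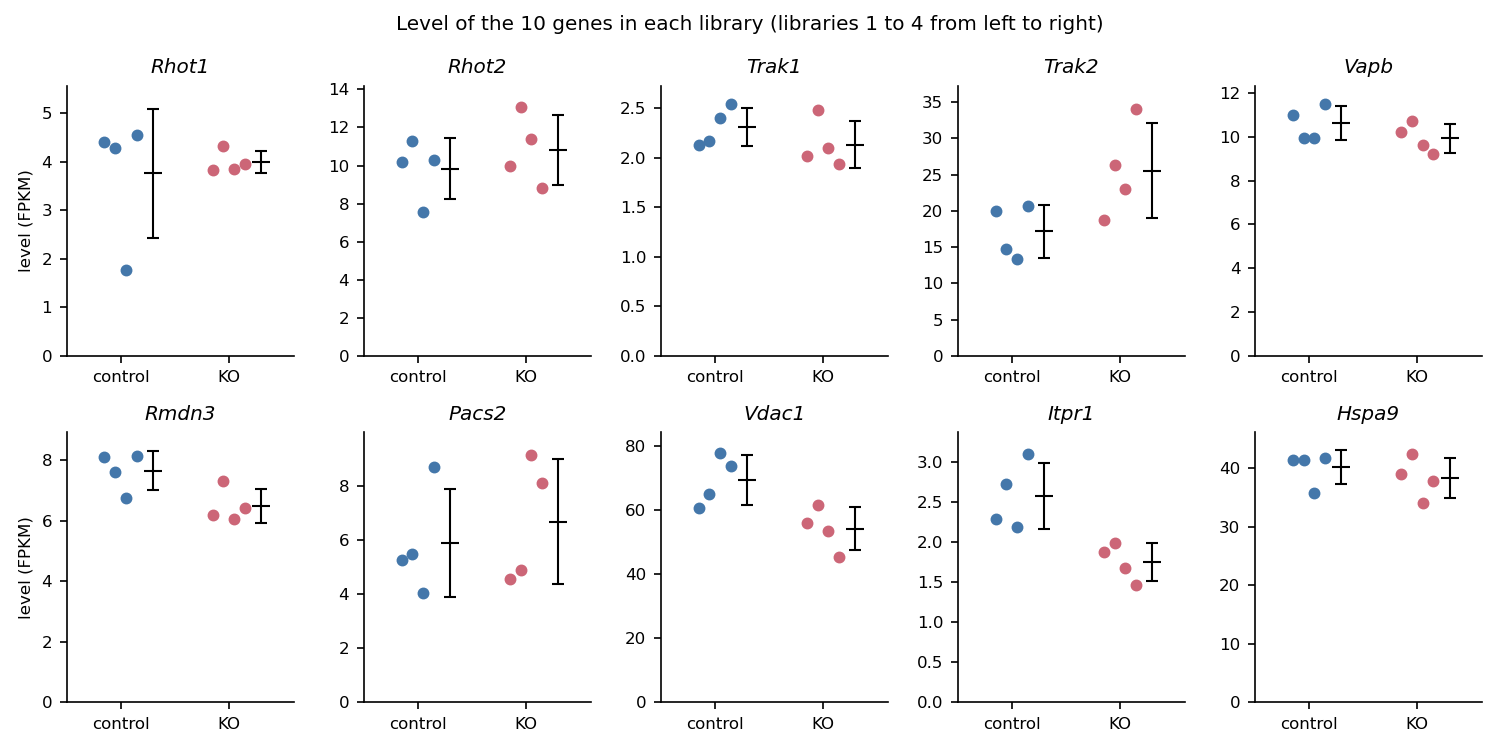
Level in FPKM (vertical axes, from 0) of each of the 10 genes in the 4 control and 4 KO libraries (points, libraries 1 to 4 from left to right), with the mean and SD of each group as black bars. Itpr1 alone has ranges that do not overlap, at 2.19 to 3.09 in control and 1.46 to 1.99 in KO.

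Between the groups, 1 of the 10 genes changed. Itpr1 fell in KO and none rose in edgeR (DESeq2 called Trak2 higher), against a background of 10.3% of all tested genes called in either direction and 5.03% called lower (edgeR quasi-likelihood test, Benjamini-Hochberg adjusted over all 20152 genes, threshold 0.05). A share of 10% is thus close to that of all genes. Unadjusted p was under 0.05 for 3 of the 10, Itpr1, Trak2 and Vdac1, where 28.1% of all tested genes had such a p. The median log2 fold change of the 10 was -0.06, against -0.018 over all tested genes, with 4 genes higher and 6 lower. FPKM ranges of the groups did not overlap for 1 of the 10, where 20.7% of all tested genes had such ranges.

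**Figure D2:**
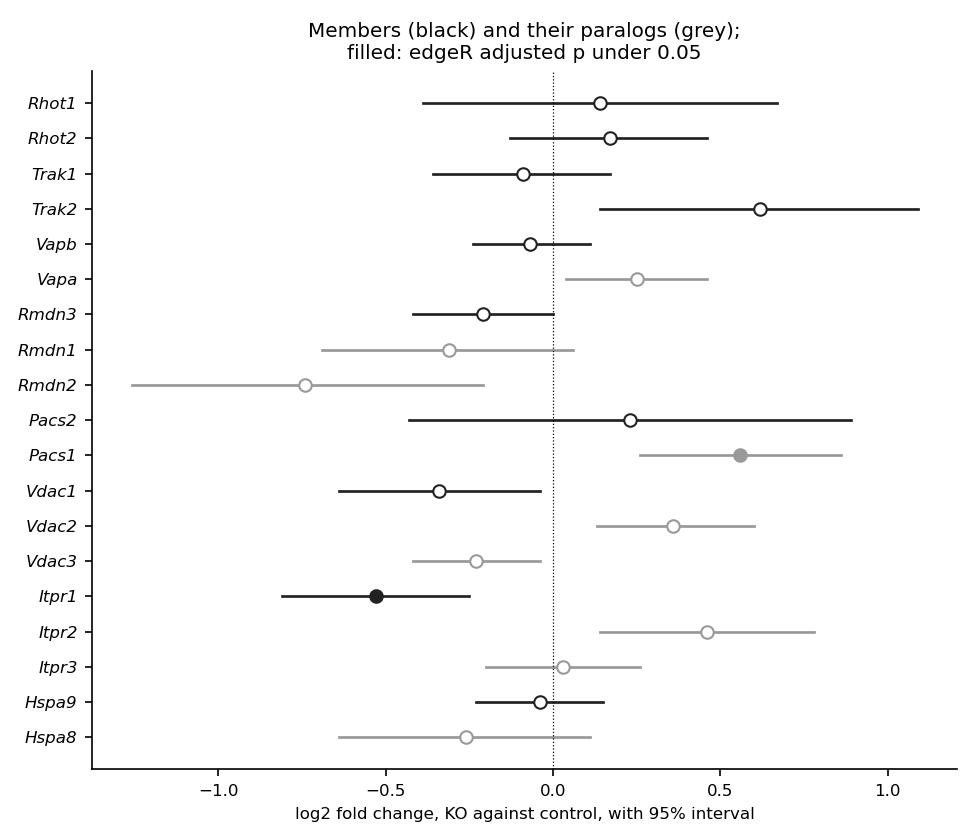
Fitted log2 fold change of KO against control (horizontal axis) with its 95% interval for the 10 genes (black) and their close paralogs (grey), filled where the edgeR adjusted p was under 0.05. Itpr1 lies at -0.53 and Pacs1 at 0.56, both filled, and Trak2 has the highest open point among the 10 genes, at 0.62.

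The Miro GTPases, calcium-binding anchors for motors on the outer membrane, showed no change past the threshold. Rhot1 (ENSMUSG00000017686, GRCm38 chromosome 11, 80209019 to 80267907, plus strand) stood at 4.41, 4.29, 1.78 and 4.55 FPKM in the control libraries, in the order 1 to 4, and at 3.83, 4.33, 3.85 and 3.96 in the KO libraries. Control 3 was far below the other 7 libraries, which lay together. The edgeR log2 fold change was 0.14 ± 0.23 (SE, adjusted p = 0.748), and -0.06 without control 3. Rhot2 (ENSMUSG00000025733, chromosome 17, 25838457 to 25844851, minus strand) stood at 10.2, 11.3, 7.57 and 10.3 FPKM in control and at 10, 13.1, 11.4 and 8.82 in KO. The groups overlapped, with control 3 lowest again, and the edgeR log2 fold change was 0.17 ± 0.13 (adjusted p = 0.44). Rhot2 shares 29.4% of its annotated exonic bases with Gm20683, a coding gene on the same strand, so how counts divide between them is uncertain. Gm20683 had its highest count, 1093, in control 3 and its lowest, 54 and 61, in control 2 and KO 2. Their summed counts were 3985, 3467, 3465 and 3908 in control and 3853, 4367, 4487 and 2861 in KO, where control 3 lay next to control 2. The 95% intervals ran from 0.761-fold to 1.59-fold for Rhot1 and from 0.916-fold to 1.38-fold for Rhot2.

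The Trak adaptors couple Miro to kinesin and dynein, and neither passed the test. Trak2 (ENSMUSG00000026028, chromosome 1, 58900449 to 58973430, minus strand) stood at 20, 14.8, 13.4 and 20.7 FPKM in control and at 18.7, 26.4, 23.1 and 34.1 in KO. KO 4 was highest, control 3 and control 2 lowest, and KO 1 lay below control 1 and control 4, so the groups overlapped. Its mean was 17.2 ± 3.67 FPKM in control and 25.6 ± 6.51 in KO (SD, n = 4 each), and the edgeR log2 fold change was 0.62 ± 0.21 (adjusted p = 0.0955). The interval ran from 1.10-fold to 2.13-fold, the log2 fold change was 0.41 without KO 4, and DESeq2 called the gene (adjusted p = 0.0406). The summed level of 5 erythroid markers was also lowest in the control libraries low for Trak2, at 8910 in control 3 and 13000 in control 2. The other 6 libraries had 20300 to 31900 FPKM. KO 4, highest for Trak2, had an erythroid sum of 23400 FPKM. That was below 25200 in control 1, 31900 in KO 2 and 26300 in KO 3, and above 21700 in control 4 and 20300 in KO 1. Of these markers 0 passed the test, and their part in the values of Trak2 was not tested. Trak1 (ENSMUSG00000032536, chromosome 9, 121297502 to 121474918, plus strand) stood between 2.13 and 2.54 FPKM in control and between 1.94 and 2.48 in KO, and the edgeR log2 fold change was -0.09 ± 0.12 (adjusted p = 0.645).

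Promoter sequence is shown for the genes with the largest open shifts, Trak2 and Vdac1, and for Vapb, which held a motif match. Each line gives the 250 bases before the start of the gene in RefSeq (GRCm38.p6), 5′ to 3′ on the gene's strand, and capitals mark a match.
Trak2, chr1:58973483-58973732, minus strand: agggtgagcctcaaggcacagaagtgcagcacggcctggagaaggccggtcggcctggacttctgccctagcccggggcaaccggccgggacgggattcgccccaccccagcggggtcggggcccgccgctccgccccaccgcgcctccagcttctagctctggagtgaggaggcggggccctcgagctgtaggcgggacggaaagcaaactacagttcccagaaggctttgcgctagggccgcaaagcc
Vdac1, chr11:52360601-52360850, plus strand: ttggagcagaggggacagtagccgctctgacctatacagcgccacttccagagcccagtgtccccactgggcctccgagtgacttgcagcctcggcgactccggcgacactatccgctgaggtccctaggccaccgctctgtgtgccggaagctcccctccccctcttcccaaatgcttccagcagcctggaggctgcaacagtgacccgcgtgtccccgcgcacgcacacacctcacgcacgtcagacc
Vapb, chr2:173737321-173737570, plus strand: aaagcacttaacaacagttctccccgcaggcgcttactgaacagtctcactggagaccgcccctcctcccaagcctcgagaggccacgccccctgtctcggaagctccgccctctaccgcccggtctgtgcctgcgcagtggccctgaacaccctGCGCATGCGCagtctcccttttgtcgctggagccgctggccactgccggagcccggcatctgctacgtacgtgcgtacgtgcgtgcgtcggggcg
The window of Vdac1 is the first of 2 in RefSeq. The letters searched on both strands were GCGCA, any base and GCGC for NRF1, a regulator of mitochondrial genes, CCGGAAGT for GABPA, another such regulator, CACGTG for E-box factors and AGATAA for GATA factors. They occur in 3.74%, 2.88%, 6.02% and 9.99% of 32851 such windows of all genes. Windows were found for 8 of the 10 genes, and besides the NRF1 match of Vapb the one for Pacs2 held a GABPA match. CG dinucleotides numbered 21 in the Trak2 window, 17 in that of Vdac1 and 24 in that of Vapb, against a median of 6 over all windows. A match is only a match of letters, and the RNA data do not measure binding.

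The contact genes did not change past the threshold. Vapb (ENSMUSG00000054455, chromosome 2, 173737511 to 173784339, plus strand), the reticulum anchor, had, with Hspa9, the smallest SE of the 10 genes. It stood at 11, 9.96, 9.95 and 11.5 FPKM in control and at 10.2, 10.7, 9.64 and 9.19 in KO, and the groups overlapped, with control 1 and control 4 above and KO 3 and KO 4 below the range of the other group. The edgeR log2 fold change was -0.07 ± 0.08 (adjusted p = 0.636, 95% interval from 0.844-fold to 1.08-fold). Its partner Rmdn3 (ENSMUSG00000070730, chromosome 2, 119137001 to 119157034, minus strand) stood at 8.09, 7.61, 6.76 and 8.14 FPKM in control and at 6.18, 7.31, 6.05 and 6.43 in KO. KO 2 alone reached into the control range, and the edgeR log2 fold change was -0.21 ± 0.09 (adjusted p = 0.188).

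Pacs2 (ENSMUSG00000021143, chromosome 12, 113014508 to 113074401, plus strand), a sorting protein that keeps reticulum and mitochondria together, varied more within the groups than between them. It stood at 5.27, 5.48, 4.04 and 8.71 FPKM in control and at 4.55, 4.88, 9.14 and 8.11 in KO. High values in control 4, KO 3 and KO 4 were separated from the other 5 libraries, which include members of both groups. The means were 5.88 ± 2 and 6.67 ± 2.3 FPKM (SD, n = 4 each), and the edgeR log2 fold change was 0.23 ± 0.29 (adjusted p = 0.654). Its interval, from 0.74-fold to 1.86-fold, is the widest of the 10 genes on the log scale. Of 7056 windows of 50 bases in its annotated transcripts, 1.08% also occur in transcripts of other genes.

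Among the calcium transfer genes, Itpr1 fell and Vdac1 and Hspa9 did not pass the test. Itpr1 (ENSMUSG00000030102, chromosome 6, 108213096 to 108551109, plus strand), the release channel of the reticulum, stood at 2.29, 2.72, 2.19 and 3.09 FPKM in control and at 1.87, 1.99, 1.68 and 1.46 in KO. Every KO library lay below every control library. The means were 2.57 ± 0.415 and 1.75 ± 0.229 FPKM (SD, n = 4 each). The difference was -0.53 ± 0.12 on the log2 scale, or 0.694-fold with a 95% interval from 0.571 to 0.843 (edgeR adjusted p = 0.0327). The direction held with each library left out, at -0.59 to -0.44, but the call did not: leaving out control 2, control 3 or control 4 gave adjusted p = 0.0828, 0.076 or 0.0887, and leaving out KO 1 or KO 3 gave 0.0563 or 0.0866. Limma on log2(FPKM + 0.5) did not call it either (adjusted p = 0.0884), whereas DESeq2 did (adjusted p = 0.00405). With control 3 and control 4 both left out the edgeR adjusted p was 0.229. Endothelial markers summed to 76.6 to 97.2 FPKM in control and 52.5 to 69.6 in KO, with 3 of 5 falling (5.03% of all tested genes fell). B cell markers summed to 19.7 to 25.2 FPKM in control and 19.2 to 25.7 in KO. The part of either cell type in the fall of Itpr1 was not tested.

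Vdac1 (ENSMUSG00000020402, chromosome 11, 52360860 to 52389397, plus strand), the main pore of the outer membrane, stood at 60.7, 65, 77.8 and 73.7 FPKM in control and at 56.1, 61.7, 53.6 and 45.4 in KO. Control 3 and control 4 were highest and KO 4 lowest, and KO 2 lay above control 1. The edgeR log2 fold change was -0.34 ± 0.13 (adjusted p = 0.136, 95% interval from 0.642-fold to 0.974-fold). Control 3 and control 4 are also the libraries with the highest share of mitochondrial transcripts and the highest summed level of 7 skeletal muscle markers, 2670 and 1420 FPKM against 100 to 1210 in the others. Without control 3 the log2 fold change of Vdac1 was -0.21, and without both it was -0.15. Of the muscle markers 0 passed the test. The part of muscle or of the mitochondrial share in the values of Vdac1 was not tested. Hspa9 (ENSMUSG00000024359, chromosome 18, 34937414 to 34954357, minus strand), the matrix Hsp70 that also bridges VDAC1 and the receptor, stood at 41.5, 41.5, 35.8 and 41.8 FPKM in control and at 39.1, 42.4, 34 and 37.9 in KO. Control 3 stood apart from the other control libraries, and the groups overlapped. Its edgeR log2 fold change was -0.04 ± 0.08 (adjusted p = 0.817, interval from 0.855-fold to 1.11-fold).

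Of the paralogs of these channels none passed the edgeR test. Itpr2 had 1.69 ± 0.218 FPKM in control and 2.26 ± 0.358 in KO, a log2 fold change of 0.46 ± 0.14 (edgeR adjusted p = 0.0756, DESeq2 adjusted p = 0.0314), while Itpr3 was at 3.54 ± 0.325 and 3.55 ± 0.257 FPKM. Vdac2, the isoform that restrains the apoptosis factor BAK, stood at 25.4 ± 2.92 and 32.1 ± 2.03 FPKM, a log2 fold change of 0.36 ± 0.1 (edgeR adjusted p = 0.0604, DESeq2 adjusted p = 0.0234). Vdac3 stood at 17.1 ± 0.973 and 14.3 ± 1.63 FPKM, a log2 fold change of -0.23 (edgeR adjusted p = 0.118). Pacs1 was the only called gene of 9 close paralogs, or 11.1% rising, where 5.31% of all tested genes rose. The level of Pacs1 rose from 14.6 ± 2.83 to 21.1 ± 2.53 FPKM, and the edgeR log2 fold change was 0.56 ± 0.13 (adjusted p = 0.0324). It was no longer called when any library but control 1 or KO 4 was left out (highest adjusted p 0.0866).

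**Figure D3:**
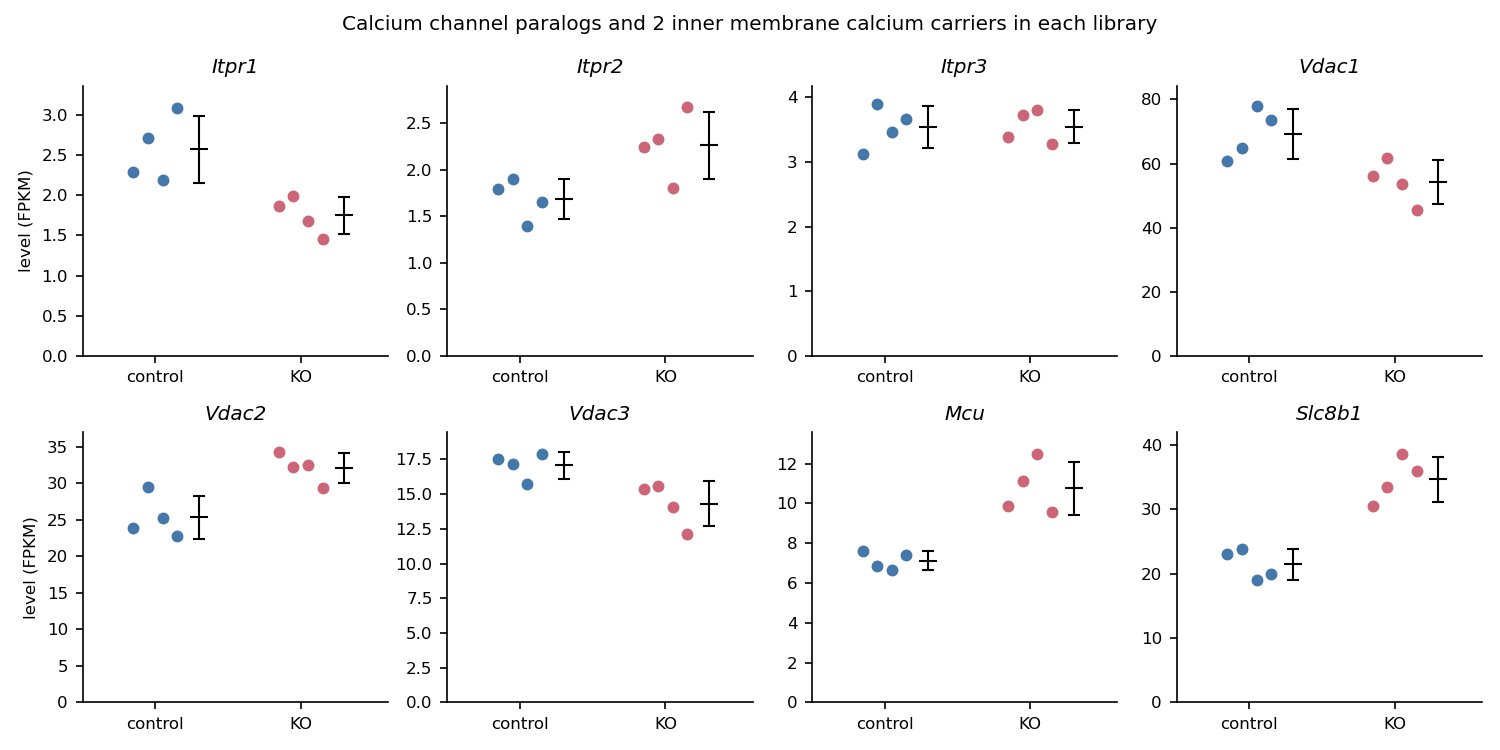
Level in FPKM (vertical axes, from 0) of the Itpr and Vdac paralogs, Mcu and Slc8b1 in the 4 control and 4 KO libraries (points, libraries 1 to 4 from left to right), with the mean and SD of each group as black bars. The KO points of Itpr1 all lie below, and those of Mcu and Slc8b1 all above, the control points, while Itpr3 lies at about 3.5 FPKM in both groups.

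A ratio of genes inside a library does not depend on how libraries are scaled, so 8 ratios of FPKM values were tested by exact permutation (two-sided, 70 assignments, smallest possible p = 0.0286). Itpr1 relative to the sum of Itpr2 and Itpr3 was 0.466, 0.469, 0.451 and 0.582 in control and 0.332, 0.328, 0.301 and 0.246 in KO. The groups were apart, with control 4 highest and KO 4 lowest, and the mean log2 ratio differed by -0.71 (exact p = 0.0286, 0.0762 adjusted over the 8 ratios). Vdac1 relative to Vdac2 and Vdac3 together was 1.46, 1.39, 1.9 and 1.81 in control and 1.13, 1.29, 1.15 and 1.09 in KO, a log2 difference of -0.48 with the same exact p. Hspa9 relative to Hspd1, the Hsp60 of the same compartment, was 0.532, 0.515, 0.63 and 0.549 in control and 0.681, 0.727, 0.709 and 0.763 in KO, a log2 difference of 0.37, again with exact p = 0.0286. In these 3 ratios the groups did not overlap. The other 5 did overlap: Trak1 to Trak2 (log2 difference -0.68, exact p = 0.0571), Vapb to Vapa (-0.31, 0.0571), Rmdn3 to Vapb (-0.14, 0.0857), Pacs2 to Pacs1 (-0.37, 0.4) and Rhot1 to Rhot2 (0.04, 0.857). After adjustment over the 8 ratios none was under 0.05. An adjusted value under 0.05 would have needed most of the 8 ratios at the smallest possible p.

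**Figure D4:**
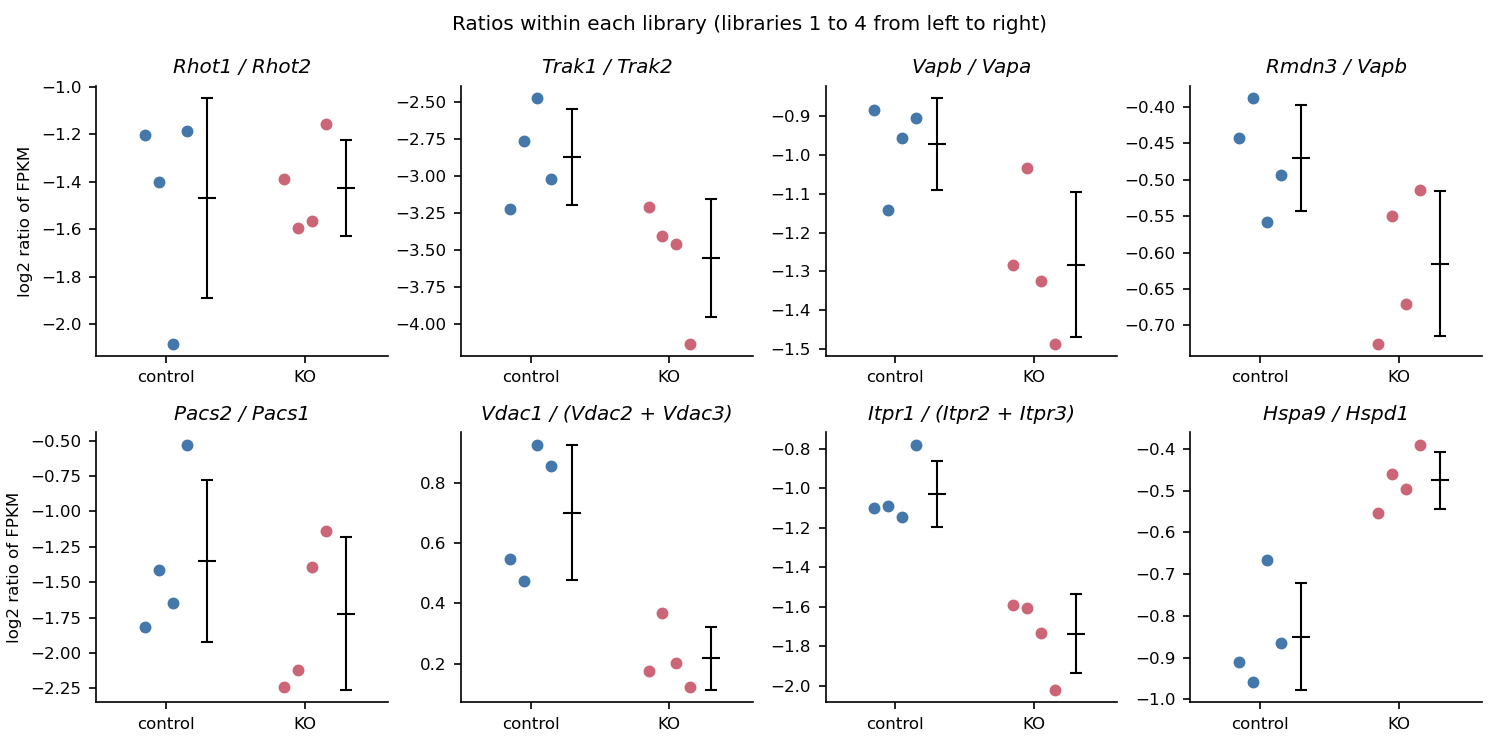
Log2 ratio of FPKM values within each library (vertical axes, which do not start at 0) for 8 pairs of a gene and its paralog or partner, with points for the 4 control and 4 KO libraries and the mean and SD of each group in black. The ratios of Itpr1 and of Vdac1 to their paralogs are lower in all KO libraries and that of Hspa9 to Hspd1 is higher.

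Beyond the 10 genes, 103 other genes of the pathway in 8 lists were in the table and 102 were tested. Of these, 9 rose and 9 fell, or 8.82% each, where 5.31% of all tested genes rose and 5.03% fell, and their median log2 fold change was -0.03. Without a single library the risers numbered 5 to 10 and the fallers 1 to 8; fallers were 1 without control 4 or KO 3, 2 without control 2 or control 3 and 5 without control 1, and risers were 5 without control 2, control 4 or KO 3. With both control 3 and control 4 left out, none of the lists held a call. Limma on log2(FPKM + 0.5) did not call Ero1l, Cav1, Ndel1, Hspd1 or Pacs1 of the genes named from the lists.

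Slc8b1 and Mcu, calcium carriers of the inner membrane, rose. In the list of calcium transfer genes 3 of 21 (14.3%) rose and 0 fell, with a median log2 fold change of 0.08. Of all tested genes 5.31% rose and 5.03% fell. Slc8b1, the sodium-calcium exchanger that lets calcium out of mitochondria, rose from 23, 23.9, 19 and 19.9 FPKM in control to 30.5, 33.5, 38.6 and 36 in KO. All KO libraries were above all control libraries, and the edgeR log2 fold change was 0.72 ± 0.11 (adjusted p = 0.00931). Mcu, the pore of the uniporter that lets calcium in, rose from 7.13 ± 0.462 to 10.8 ± 1.33 FPKM (log2 fold change 0.62 ± 0.1, edgeR adjusted p = 0.0104). Both passed with any single library left out (adjusted p at most 0.0348 and 0.0384). Ero1l, an oxidase of the reticulum, rose with a log2 fold change of 0.36, and was not called when control 2, control 3, control 4, KO 1 or KO 3 was left out (highest edgeR adjusted p 0.0789).

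Tethers went both ways, with 2 of 15 rising and 2 falling, or 13.3% each, and a median of 0.12. Of all tested genes 5.31% rose and 5.03% fell. Pdzd8, a reticulum tether with a lipid transfer domain, rose from 7.75, 7.09, 6.01 and 6.36 FPKM in control to 10.2, 10.7, 10.5 and 10.6 in KO. The KO libraries lay close together and above every control library, and the edgeR log2 fold change was 0.66 ± 0.09 (adjusted p = 0.00742, at most 0.03 without any single library). Fis1, which meets the reticulum protein encoded by Bcap31, rose by a log2 fold change of 0.49, a call that ended on leaving out control 2, control 4 or KO 3 (highest edgeR adjusted p 0.0585). Osbpl5, a lipid transfer protein at contact sites, fell by 0.62 on the log2 scale and Rrbp1, a ribosome-binding reticulum protein, by 0.42; the call of the first ended on leaving out control 2, control 3, control 4, KO 1 or KO 3 (highest edgeR adjusted p 0.0734), that of the second on leaving out any library but KO 1 (0.0999). Mfn2, named in the title of the series, did not pass (17 ± 1.55 FPKM in the control libraries, 19.1 ± 2.62 in the KO libraries, edgeR adjusted p = 0.328). Vapa, the paralog of Vapb, had a log2 fold change of 0.25 (edgeR adjusted p = 0.117). The number of tethers that fell was 1 without control 1, KO 1, KO 2 or KO 4 and 0 without control 2, control 3, control 4 or KO 3, and 1 rose without control 2, control 4 or KO 3.

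Armcx2, Armcx3 and Armcx6 fell, members of a family of X-linked proteins of which Armcx3 is known to bind Miro and Trak in neurons. In the list of mitochondrial transport factors 4 of 14 tested genes (28.6%) fell and 0 rose, with a median log2 fold change of -0.42. Of all tested genes 5.03% fell and 5.31% rose. Armcx3 stood at 10.4, 9.77, 9.93 and 10.2 FPKM in control and fell to 4.52, 7.18, 5.93 and 5.65 in KO, and the edgeR log2 fold change was -0.77 ± 0.14 (adjusted p = 0.0146, and at most 0.0486 without any single library). Armcx2 fell from 4.8 ± 0.457 to 2.21 ± 0.775 FPKM and Armcx6 from 2.59 ± 0.161 to 1.49 ± 0.306, while Armcx1, with a log2 fold change of -0.65, did not pass (edgeR adjusted p = 0.24). Hap1, an adaptor for kinesin and dynein, fell from 0.859 ± 0.099 to 0.362 ± 0.0853 FPKM. The calls of Armcx2, Armcx6 and Hap1 ended on leaving out control 2, control 3, control 4 or KO 3, that of Armcx6 also on leaving out control 1 and that of Hap1 KO 1 (highest edgeR adjusted p 0.0739, 0.0833 and 0.0649). The count of 4 was 1 without control 2, control 3, control 4 or KO 3.

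Of 20 motor and motor adaptor genes, 1 rose and 1 fell, or 5% each, close to the 5.31% and 5.03% of all tested genes. Their median was 0.01, and the kinesin heavy chain Kif5b stood at 8.04 ± 0.195 FPKM in control and 8.79 ± 0.821 in KO (edgeR adjusted p = 0.368). Fez1, a kinesin adaptor best known from neurons, fell in level from 0.525 ± 0.142 to 0.113 ± 0.0718 FPKM (log2 fold change -2.15 ± 0.45, edgeR adjusted p = 0.024) and was no longer called when control 2, control 3, control 4 or KO 3 was left out (highest 0.0669). With limma on log2(FPKM + 1), a scale that understates the change of low genes, the log2 difference was -0.45 for Fez1 and -0.45 for Hap1. Ndel1, a dynein regulator, rose by 0.39, a call that ended on leaving out any one library (highest edgeR adjusted p 0.133). Without KO 4, 2 genes of the list fell. Kif5b was chosen after its values were seen.

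Of 8 lipid enzymes of contact sites 1 rose and 1 fell, or 12.5% each, where 5.31% of all tested genes rose and 5.03% fell. Dgat2, which makes triglyceride, rose from 11.6 ± 1.57 to 23.9 ± 6 FPKM (log2 fold change 1.08, edgeR adjusted p = 0.0146, at most 0.0483 without any single library). Cav1, a membrane scaffold abundant in endothelium, fell by 1.09 on the log2 scale, a call that ended on leaving out any library but control 2 (highest edgeR adjusted p 0.107), and without KO 2 the risers of this list, whose median was 0.18, numbered 2. Tspo, an outer membrane cholesterol-binding protein, was the only 1 of 6 VDAC partners called, rising from 98.3 ± 10.6 to 181 ± 37.5 FPKM (log2 fold change 0.92, edgeR adjusted p = 0.0136, at most 0.0457 without any single library); the median of that list was 0.06. A list of 14 genes holds import partners of the mitochondrial Hsp70 and other chaperones of its compartment, with a median of -0.16. Its only called gene, the Hsp60 gene Hspd1, fell in level from 72.9 ± 10.8 to 53.3 ± 5.29 FPKM (log2 fold change -0.42, edgeR adjusted p = 0.0379). That call ended on leaving out any library but control 3 (highest edgeR adjusted p 0.1). The 9 close paralogs had a median of 0.03, and without KO 1 none of them rose and 1 fell.

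**Figure D5:**
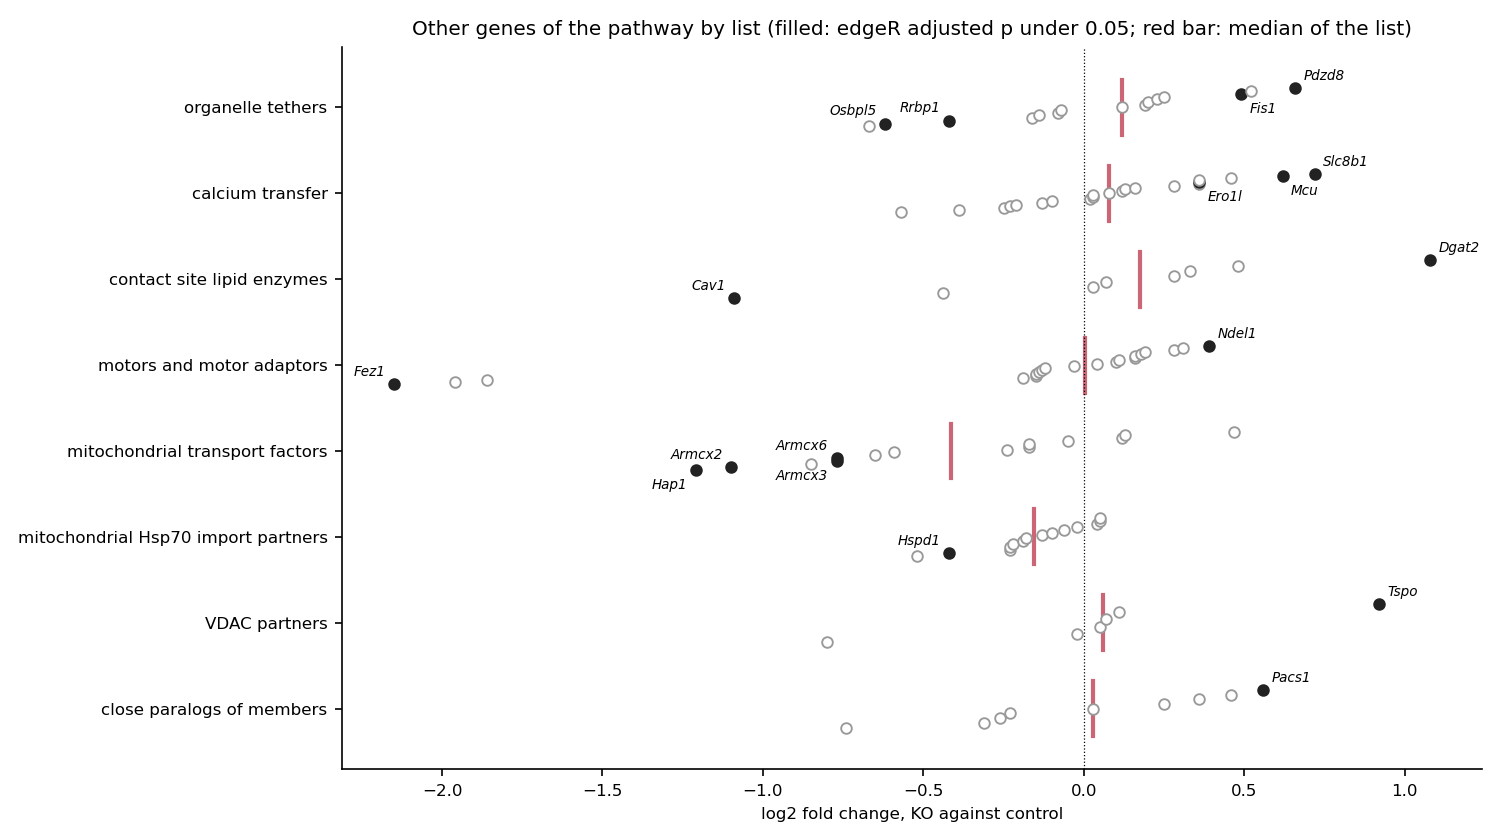
Log2 fold change of KO against control (horizontal axis) for the tested genes of 8 lists (vertical position within a list only spreads the points), filled and named where the edgeR adjusted p was under 0.05, with the median of each list as a red bar. The mitochondrial transport factors have the lowest median, -0.42, and 4 filled points, all below 0.

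Markers of several cell types also moved in the same comparison, in which 5.31% of all tested genes rose and 5.03% fell. Of 8 osteoblast markers 4 fell, their summed level being 3270 to 6790 FPKM in control and 952 to 2320 in KO, and of 6 osteocyte markers 2 fell (415 to 1040 and 83.4 to 420). Of 5 chondrocyte markers 2 fell (55.4 to 123 and 5.93 to 33). Of 8 neutrophil markers 5 rose, at 29100 to 41800 FPKM in control and 54500 to 68100 in KO. Among 6 B cell markers 1 fell, and none of the osteoclast (6), erythroid (5), macrophage (5), skeletal muscle (7) and adipocyte (4) markers passed, where 1, 1, 2, 0 and 1 of them had an unadjusted edgeR p under 0.05. Col9a1 was at 0 counts in 1 library and Lep in 3, and no other marker was at 0 in any. The part of these shifts in the changes of Itpr1, Slc8b1, Mcu, Pdzd8, Tspo, Dgat2 and the Armcx genes was not tested.

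The tested genes with a mean of at least 1 FPKM whose centred log2 profile (log2 CPM, counts scaled to the library total) lay nearest to that of Itpr1 over the 8 libraries were Ttc33, Pebp1 and Ctnnd1, with root mean square differences of 0.0803, 0.0875 and 0.0917 among 11957 candidates. Ctnnd1, the p120 catenin of cell junctions, had 16.4 FPKM in control and 10.7 in KO (edgeR adjusted p = 0.0101). Pebp1, a kinase inhibitor, had 54.6 and 38.3 FPKM (edgeR adjusted p = 0.0421), a call that ended on leaving out any library but KO 2 (highest 0.114). Ttc33 had 6.21 and 4.61 FPKM and did not pass (edgeR adjusted p = 0.105). These genes were selected for likeness to Itpr1, so their differences are a description.

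In the table's own Gene Ontology annotation, 8 of the 10 genes carry the term mitochondrion, which 10.2% of 13423 annotated tested genes carry. Rhot1, Rhot2, Rmdn3 and Vdac1 carry mitochondrial outer membrane, which 0.752% carry. The 10 genes were chosen for roles at mitochondria, so these shares follow from the choice and are only a description. Itpr1 has 0 terms in the table, so nothing can be read from its absence.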

How the data were processed

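The deposited table gives, for each gene and each of 8 cortical bone libraries, an estimated count and an FPKM value made by the authors, per the file headers. The submitters' processing notes name HISAT2 2.0.4, StringTie 1.3.4d, DESeq2 and GRCm38 without a role; the counter, strand setting and filters are not named in the sources used here. All deposited estimated counts were whole, and rounding had no effect. Among small counts 4 and 8 were in excess (4 occurred 7854 times and 3 occurred 2724 times, 8 occurred 4839 times and 7 occurred 2019 times), so a fragment may be worth about 4 counts, and counting error is larger than the counts imply. Deposited FPKM values are normalized to gene length and library size.

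Counts were tested with edgeR 4.0.16 in R 4.3.3 (TMM scaling, filterByExpr at a minimum count of 10, quasi-likelihood test, two-sided, Benjamini-Hochberg adjustment over 20152 genes). The SE of a log2 fold change is its size divided by the square root of the F statistic. Intervals are at 95%. Ratios were tested with scipy 1.17.1. Exonic overlaps and shared 50-base windows come from GENCODE M21 (GRCm38), where 94.2% of the 55141 matched identifiers have the table's coordinates. The 10 genes and the lists were chosen with earlier results of these data known, and the promoter motifs after the values were seen. The text names the 10 genes and, in each list, the genes past the threshold (at most 4, by p). It also names the genes of the ratios and the 3 genes nearest to a called member. Of the list genes, Kif5b, Armcx1 and Mfn2 are given with values outside this rule, Kif5b after its values were seen. Some results on single genes are not reported here. No pairing of samples by equal replicate number was seen, and the labels do not state one. No library pair agreed within sampling noise (chi-square at least 71.1 times its degrees of freedom). On simulated counts for 20152 genes of this comparison, 67 genes were changed 1.5-fold, 67 were changed 2-fold and 66 were changed 4-fold. The test recovered 2.99%, 23.9% and 63.6% of them, with 2 false calls. The real data held 2083 calls, and a Benjamini-Hochberg limit on p loosens as more genes change. The simulated rates are thus not the power of the real comparison. They were not split by expression level, so they do not give the power for the 10 genes either. Alternatives were other filters, scalings, limma 3.58.1 on log2 FPKM, DESeq2 1.42.0, robust estimation, a replicate block, counts divided by 4, and libraries left out.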

Additional observations from a re-analysis of the deposited data

Results flagged for a closer look

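Each group of 4 libraries was examined for a library far from the other 3, in 88 groups over the named genes and the ratios. A gap to the nearest library above Dixon's 95% critical value was met in 5 groups, where chance gives about 1 in 20. Rhot1 in control 3 stood at 1.78 FPKM, with the other control libraries at 4.29 to 4.55. Hspa9 in control 3 was at 35.8 FPKM, with the others at 41.5 to 41.8. Dgat2 in control 1 was at 13.9 FPKM, above 10.7 to 10.9 in the others. Tspo in KO 4 was at 237 FPKM, above 157 to 168 in the other KO libraries. The ratio of Itpr1 to the sum of Itpr2 and Itpr3 was 0.582 in control 4, above 0.451 to 0.469 in the others.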

How the results depend on the processing

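The 10 genes had at least 937 estimated counts in every library, so the spread between 4 libraries limits them more than counting error. Itpr1 kept its direction under all the alternative settings, at -0.59 to -0.37. The same held for the others of the 10 except Rhot1, Trak1 and Hspa9, whose sign changed in at least 1 setting each. The call of Itpr1 was lost with library totals only (edgeR adjusted p = 0.0563) and with limma at any pseudocount. It was also lost with the replicate block (edgeR adjusted p = 0.113) and without control 3 and control 4 together (0.229).

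The number of the 10 genes that fell was 1, and 0 with library totals only, with limma on log2(FPKM + 0.5), log2(FPKM + 0.1) or log2(FPKM + 1), with the replicate block and without control 3 and 4; it was 0 to 1 with a single library left out. The number that rose was 0, and 1 with DESeq2. Over all genes 1070 rose and 1013 fell. With DESeq2 these were 1916 and 2049, with the replicate block 28 and 28, and without control 3 and 4 they were 24 and 32; single omissions gave 398 to 1096 and 323 to 1134.

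The replicate number used as a block left 0 calls in every list, and so did leaving out control 3 and 4 together. Deviations from the group means correlated at 0.11, -0.17, 0.09 and -0.06 for numbers 1 to 4. Not every library correlated best with its own number. No pairing by number was thus seen, and the labels do not state whether there was one. The blocked log2 fold change of Itpr1 was -0.52, and the blocked exact test of the ratios gave p = 0.125 at least, its smallest, for the same differences.

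For single lists the following counts also moved. Tethers that fell were 1 with no filter (0 to 1 with a library left out, risers 1 to 2). Calcium transfer risers were 5 with a mean of at least 1 FPKM, 6 with DESeq2 and 5 with counts divided by 4 (2 to 4). Lipid enzyme risers were 2 with DESeq2 (1 to 2), and fallers 0 with no filter or any limma fit (0 to 1). Motor risers were 0 with no filter, RLE scaling, library totals, the mitochondrial genome left out or any limma fit, 2 with a mean of at least 1 FPKM or counts divided by 4, and 3 with DESeq2 (0 to 1); fallers were 0 with a mean of at least 1 FPKM, 3 with DESeq2, and 2 with any limma fit or counts divided by 4 (0 to 2). Transport factor fallers were 1 to 4 with a library left out. Fallers in the Hsp70 list were 0 with no filter, library totals or any limma fit and 2 with a mean of at least 1 FPKM, DESeq2 or counts divided by 4 (0 to 1). Paralog risers were 0 with no filter, library totals or any limma fit, 2 with a mean of at least 1 FPKM or counts divided by 4, and 3 with DESeq2 (0 to 1), and fallers 1 with DESeq2 (0 to 1). Over all lists together, 15 rose and 14 fell with DESeq2 (5 to 10 and 1 to 8 with a library left out). The cause of these moves was not tested. None of the 8 ratios passed after adjustment under any setting.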
